A study of Mus musculus with 12 samples.

Results

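The genes described here are the TGF-beta ligands Tgfb1, Tgfb2 and Tgfb3, their receptors Tgfbr1, Tgfbr2 and Tgfbr3, and the latent TGF-beta binding proteins Ltbp1, Ltbp2, Ltbp3 and Ltbp4. They were found by symbol in the platform's annotation, and each had 1 probe set that names no other gene, so 10 of the 19938 genes measured were members. Expression was measured on 12 arrays in cultured cardiac colony-forming fibroblasts (cCFU-F), which had been sorted from mouse hearts as SCA1+PDGFRα+CD31- cells. The cells came from C57BL/6 male mice aged 12 weeks, and all 4 groups shared this origin. One group was given PDGF-AB at 50 ng/ml, a ligand that activates the PDGF receptors. AG1296, a small molecule that blocks the kinase activity of PDGF receptors and of some other receptor kinases, was given to separate groups at 1 uM and 10 uM. The untreated group received neither. Each group had 3 arrays. The sources used here give neither the vehicle nor how long treatment lasted, so effects of a vehicle and of a treatment cannot be told apart. The labels do not say whether the arrays came from separate cultures or animals, so the p-values measure only the spread between arrays, which may be technical.

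TGF-beta is made as a precursor whose propeptide stays wrapped around the growth factor and keeps it inactive. Most cells secrete this small latent complex bound to an LTBP, which ties it to fibrillin and fibronectin in the matrix, and integrins or proteases release the active ligand. The ligand then binds the TGFBR2 receptor, which recruits and phosphorylates TGFBR1, and SMAD2 and SMAD3 carry the signal to the nucleus. In the heart this pathway is best known for driving fibroblasts to make collagen and to become contractile myofibroblasts.

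The deposited values are log2 expression, so a difference of 1 is a doubling. Array medians lay between 4.02 and 4.13, and all 10 members lay above the array median on every array, with single values from 5.11 to 8.41. Across genes, r lay between 0.992 and 0.996 for pairs of arrays within a group and between 0.987 and 0.996 for all pairs; genes are no independent replicates. Of 11 measured fibroblast markers, 10 lay above the array median on all arrays of the PDGF-AB, AG1296 10 uM and untreated groups and 11 on those of the AG1296 1 uM group. Of 9 endothelial markers 1 did so in each group (Egfl7), and Pecam1, Cdh5 and Kdr did not. Of 11 leukocyte markers 1 or 2 did (Lyz2 and Cd68), and of 9 cardiomyocyte markers 1 or 2 (Tnnt2 and Tnni3). Epicardial and mesothelial markers were above the median for 5 of 6, so the culture carried Wt1, Upk3b, Upk1b, Krt19 and Lrrn4 signal as well as the fibroblast genes. In bulk cultures, fewer cells of a type and less RNA per cell cannot be told apart.

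The ligands showed different orders of the groups. Tgfb2 and Tgfb3 were lowest in PDGF-AB cultures and highest in AG1296 cultures, while Tgfb1 was higher in all 3 treated groups than in untreated cells. Across the 4 groups, 6 of the 10 members passed the F test of limma at an adjusted p under 0.05, against 5% of all genes. These were Tgfb2 (adjusted p = 1.31e-05), Ltbp2 (0.000153), Tgfb3 (0.00047), Tgfb1 (0.0114), Ltbp1 (0.0123) and Ltbp3 (0.0285). The receptors Tgfbr1 (adjusted p = 0.0631), Tgfbr3 (0.105) and Tgfbr2 (0.6) and the binding protein Ltbp4 (0.209) did not pass it. The plot of member levels by array shows these patterns.

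**Figure D1:**
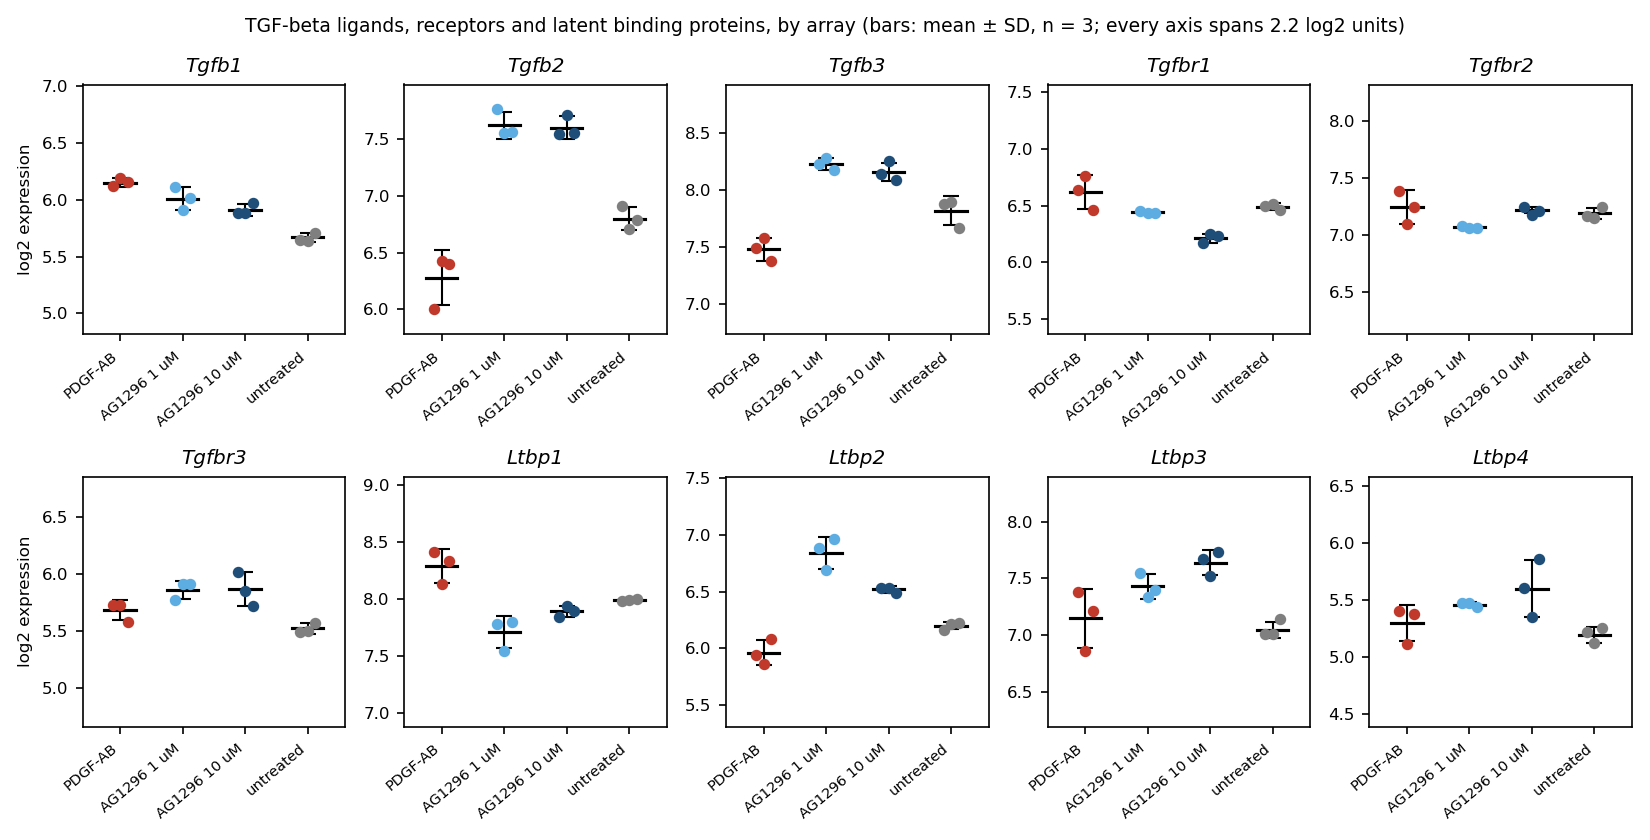
Log2 expression of the 10 members on each of the 12 arrays, with group means and SD as black bars (n = 3 arrays per group; every axis spans 2.2 log2 units). Tgfb2 shows the widest range over the arrays, 1.76, and Tgfbr2 the narrowest, 0.33.

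For 8 of the 10 members, RefSeq (GRCm38.p6) gave 12 windows upstream of a transcript start. The 250 bases before the start are given for the members with the lowest F test p (Tgfb2, Ltbp2) and for a ligand and a binding protein with another order of the groups (Tgfb1, Ltbp1), 5′ to 3′ on the gene's own strand, with motif matches in capitals. The motifs searched on both strands were the CArG box, AP-1 (TGANTCA), CRE (TGACGTCA), EGR (GCGNGGGCG), GC box (GGGCGG), FOXO (GTAAACA), SMAD (GTCTAGAC) and the letters TATAAA of the TATA box.
Tgfb2: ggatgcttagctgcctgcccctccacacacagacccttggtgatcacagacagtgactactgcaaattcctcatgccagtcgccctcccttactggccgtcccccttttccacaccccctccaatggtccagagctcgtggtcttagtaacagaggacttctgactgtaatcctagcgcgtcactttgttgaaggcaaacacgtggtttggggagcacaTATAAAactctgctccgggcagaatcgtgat
Ltbp2: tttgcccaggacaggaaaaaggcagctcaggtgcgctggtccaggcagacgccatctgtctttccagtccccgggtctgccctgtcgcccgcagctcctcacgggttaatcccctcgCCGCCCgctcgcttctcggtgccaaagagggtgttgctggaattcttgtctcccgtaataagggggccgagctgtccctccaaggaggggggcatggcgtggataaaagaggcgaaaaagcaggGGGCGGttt
Tgfb1: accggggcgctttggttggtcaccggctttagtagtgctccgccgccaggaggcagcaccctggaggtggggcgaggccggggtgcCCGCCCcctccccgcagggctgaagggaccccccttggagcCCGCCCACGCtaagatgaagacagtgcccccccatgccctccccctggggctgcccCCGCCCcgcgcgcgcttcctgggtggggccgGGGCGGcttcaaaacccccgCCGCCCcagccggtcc
Ltbp1: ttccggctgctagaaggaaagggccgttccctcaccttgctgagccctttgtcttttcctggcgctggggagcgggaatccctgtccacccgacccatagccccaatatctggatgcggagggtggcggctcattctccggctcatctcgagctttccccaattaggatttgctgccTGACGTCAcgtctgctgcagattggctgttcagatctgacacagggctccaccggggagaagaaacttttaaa
The Tgfb2 window (chr1:186705990-186706239, minus strand) holds 1 TATA match at positions -31 to -26 from the start and no other motif of the set. The Ltbp2 window (chr12:84876492-84876741, minus strand) holds 2 GC boxes. The Tgfb1 window (chr7:25686752-25687001, plus strand) is 75.2% G and C and holds 5 GC boxes and 1 EGR match, which overlaps a GC box, while the Tgfb2 window is 53.6% G and C. The Ltbp1 window shown (chr17:75005279-75005528, plus strand) holds 1 CRE match at positions -73 to -66. Ltbp1 has another window (chr17:75178531-75178780, plus strand), not printed here, which holds no motif of the set. Of the 32851 windows of the same length in the table, 12.4% hold a TATA match, 32.7% a GC box, 4.7% an EGR match and 1.55% a CRE match. A match describes letters and not binding, and motifs with no match in these windows are only absent from these 250 bases.

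Tgfb2, the ligand known for its part in heart valve and septum formation, showed the widest differences. Its log2 values were 6.00, 6.43 and 6.40 in PDGF-AB cultures, 7.76, 7.55 and 7.56 at AG1296 1 uM, 7.54, 7.71 and 7.55 at AG1296 10 uM, and 6.91, 6.71 and 6.79 in untreated cells. The AG1296 arrays all lay above the untreated arrays, which all lay above the PDGF-AB arrays, and the 2 doses overlapped. Tgfb2 rose 1.77-fold at AG1296 1 uM against untreated (log2 fold change 0.82 ± 0.12 SE, adjusted p = 0.00124) and 1.74-fold at 10 uM (0.80 ± 0.12, adjusted p = 0.003). PDGF-AB against untreated gave -0.53 ± 0.12 (95% interval -0.78 to -0.27), with an adjusted p of 0.111 over all genes. Set against AG1296, Tgfb2 was lower with PDGF-AB by 2.55-fold at 1 uM (log2 -1.35 ± 0.12, adjusted p = 7.7e-06) and by 2.51-fold at 10 uM (-1.33 ± 0.12, adjusted p = 1.72e-05). The 2 doses differed by -0.02 (interval -0.28 to 0.24), 10 uM minus 1 uM. In order of level, AG1296 1 uM and 10 uM stood first and did not differ beyond their spread, untreated came next, and PDGF-AB last.

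Tgfb3, the ligand best known from palate formation, had the same order of groups at a smaller size. Its values were 7.49, 7.58 and 7.38 with PDGF-AB, 8.23, 8.28 and 8.18 at AG1296 1 uM, 8.14, 8.26 and 8.09 at AG1296 10 uM, and 7.88, 7.90 and 7.67 in untreated cells. No PDGF-AB array reached an untreated one, and no untreated array reached an AG1296 one. Tgfb3 rose by 0.41 ± 0.09 at AG1296 1 uM against untreated (adjusted p = 0.0259), and the value at 10 uM was 0.34 ± 0.09 (adjusted p = 0.0892). With PDGF-AB it was lower than at AG1296 1 uM by 1.68-fold (log2 -0.74 ± 0.09, adjusted p = 0.000172) and lower than at 10 uM by 1.60-fold (-0.68 ± 0.09, adjusted p = 0.000612). Its PDGF-AB difference from untreated was -0.33 ± 0.09 (adjusted p = 0.239). The rise at 1 uM lost its call without AG1296 1 uM replicate 1, 2 or 3 or untreated replicate 1 or 3, with median centring of the arrays and with only the 6 arrays compared, at an adjusted p of up to 0.121.

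Tgfb1, the isoform most often linked to fibrosis, followed neither of the others. It read 6.12, 6.19 and 6.16 with PDGF-AB, 6.11, 5.91 and 6.02 at AG1296 1 uM, 5.88, 5.88 and 5.97 at AG1296 10 uM, and 5.65, 5.64 and 5.71 in untreated cells. Every treated array was above every untreated array, the PDGF-AB arrays were above all AG1296 arrays, and the 2 AG1296 doses overlapped. Tgfb1 was the 1 member of 10 called with PDGF-AB against untreated (log2 0.49 ± 0.08, interval 0.31 to 0.66, 1.40-fold, adjusted p = 0.0222), where 0.331% of all genes were called and 0.12% were called higher. It rose by 0.35 ± 0.08 at AG1296 1 uM (adjusted p = 0.035), and its value at 10 uM was 0.25 ± 0.08 (adjusted p = 0.207). PDGF-AB against AG1296 gave 0.14 ± 0.08 at 1 uM (adjusted p = 0.418) and 0.24 ± 0.08 at 10 uM (adjusted p = 0.164). The PDGF-AB rise lost its call without any 1 of the 6 arrays of the pair (adjusted p up to 0.169). The AG1296 1 uM rise lost it without AG1296 1 uM replicate 1 or 3, AG1296 10 uM replicate 1 or any 1 untreated array (up to 0.164). The 3 comparisons with untreated cells share the same untreated arrays, so they are not independent of each other.

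Of the 3 receptors, only Tgfbr1 was called, in 1 of the 6 comparisons. Tgfbr1, the type I receptor kinase that phosphorylates SMAD2 and SMAD3, read 6.64, 6.76 and 6.46 with PDGF-AB, 6.45, 6.43 and 6.43 at AG1296 1 uM, 6.17, 6.25 and 6.23 at AG1296 10 uM, and 6.50, 6.51 and 6.46 in untreated cells. The AG1296 10 uM arrays lay below all the others, and the PDGF-AB and untreated arrays overlapped. Tgfbr1 rose with PDGF-AB against AG1296 10 uM by 0.41 ± 0.09 (1.32-fold, adjusted p = 0.0191). Against untreated, AG1296 10 uM gave -0.28 ± 0.09 (adjusted p = 0.175), AG1296 1 uM -0.06 (adjusted p = 0.883) and PDGF-AB 0.13 (adjusted p = 0.73). Its call against 10 uM was lost without AG1296 10 uM replicate 1, 2 or 3 or PDGF-AB replicate 1 or 2 (adjusted p up to 0.12).

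Tgfbr2, the type II receptor that binds the ligand first, read 7.39, 7.10 and 7.25 with PDGF-AB, 7.08, 7.06 and 7.06 at AG1296 1 uM, 7.25, 7.18 and 7.21 at AG1296 10 uM, and 7.17, 7.15 and 7.25 in untreated cells. PDGF-AB and AG1296 10 uM arrays overlapped the untreated ones, and AG1296 1 uM lay just below them. Tgfbr2 was called in 0 of the 6 comparisons, in the 20 alternatives as well as in limma as run, and its largest difference was 0.18 (PDGF-AB minus AG1296 1 uM, interval -0.01 to 0.37, adjusted p = 0.33).

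Tgfbr3, betaglycan, is a co-receptor that presents TGF-beta2 in particular to the signalling receptors. It read 5.73, 5.73 and 5.58 with PDGF-AB, 5.77, 5.91 and 5.91 at AG1296 1 uM, 6.02, 5.85 and 5.72 at AG1296 10 uM, and 5.49, 5.50 and 5.57 in untreated cells. All treated arrays lay above the untreated ones, and the 2 doses overlapped. The differences from untreated were 0.34 ± 0.09 at AG1296 1 uM (adjusted p = 0.0749), 0.34 ± 0.09 at 10 uM (adjusted p = 0.0989) and 0.16 with PDGF-AB (adjusted p = 0.673), so none passed. With dim genes left out of the test, both AG1296 differences passed, at adjusted p down to 0.0242 and 0.0317.

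Among the binding proteins Ltbp2 went with Tgfb2, while Ltbp1 went the opposite way. Ltbp2 is the family member that does not bind TGF-beta itself and is known for its place in elastic microfibrils. It read 5.94, 5.86 and 6.08 with PDGF-AB, 6.88, 6.69 and 6.96 at AG1296 1 uM, 6.53, 6.53 and 6.49 at AG1296 10 uM, and 6.16, 6.21 and 6.22 in untreated cells. No 2 of the 4 groups overlapped, with AG1296 1 uM highest and PDGF-AB lowest. Ltbp2 rose by 0.65 ± 0.09 at AG1296 1 uM against untreated (1.57-fold, adjusted p = 0.000984). At 10 uM the value was 0.32 ± 0.09 (adjusted p = 0.12), and PDGF-AB gave -0.24 ± 0.09 (adjusted p = 0.469). With PDGF-AB it was lower than at AG1296 1 uM by 1.85-fold (log2 -0.88 ± 0.09, adjusted p = 3.03e-05) and lower than at 10 uM by 1.47-fold (-0.56 ± 0.09, adjusted p = 0.00261). The dose difference, 10 uM minus 1 uM, was -0.33 (interval -0.53 to -0.13), with an adjusted p of 0.216.

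Ltbp1, which covalently holds latent TGF-beta and tethers it to the matrix, read 8.41, 8.13 and 8.33 with PDGF-AB, 7.78, 7.54 and 7.80 at AG1296 1 uM, 7.84, 7.94 and 7.89 at AG1296 10 uM, and 7.98, 7.99 and 8.00 in untreated cells. The PDGF-AB arrays were the highest and the AG1296 1 uM arrays the lowest, and no groups overlapped. Ltbp1 rose with PDGF-AB against AG1296 1 uM by 0.58 ± 0.10 (1.49-fold, adjusted p = 0.00225) and against 10 uM by 0.40 ± 0.10 (adjusted p = 0.0393). Neither PDGF-AB (0.30 ± 0.10, adjusted p = 0.36) nor AG1296 at 1 uM (-0.28 ± 0.10, adjusted p = 0.18) nor 10 uM (-0.10 ± 0.10, adjusted p = 0.798) passed against untreated. The 10 uM call was lost in 11 of 20 alternatives, with an adjusted p up to 0.138. The single arrays whose removal lost it were AG1296 1 uM replicate 1, AG1296 10 uM replicates 1, 2 and 3, PDGF-AB replicates 1 and 3 and untreated replicates 1, 2 and 3.

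Ltbp3, which binds latent TGF-beta and is needed for its secretion in bone and tooth, read 7.38, 6.86 and 7.21 with PDGF-AB, 7.55, 7.34 and 7.40 at AG1296 1 uM, 7.67, 7.52 and 7.73 at AG1296 10 uM, and 7.01, 7.01 and 7.14 in untreated cells. The AG1296 arrays lay above the untreated ones, and the PDGF-AB arrays straddled them, replicate 2 being the lowest of all 12. Ltbp3 rose at AG1296 10 uM against untreated by 0.59 ± 0.12 (1.51-fold, adjusted p = 0.0228), and 1 uM gave 0.38 ± 0.12 (adjusted p = 0.143). With PDGF-AB it was 0.49 ± 0.12 lower than at AG1296 10 uM on the log2 scale (log2 fold change -0.49, adjusted p = 0.0423). That call was lost in 14 of 20 alternatives (adjusted p up to 0.151), among them every removal of 1 array except PDGF-AB replicate 1. The rise at 10 uM was lost without AG1296 10 uM replicate 1 or 3 or any 1 untreated array (up to 0.0947).

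Ltbp4, which holds TGF-beta1 and takes part in elastic fibre assembly, read 5.40, 5.11 and 5.38 with PDGF-AB, 5.47, 5.47 and 5.44 at AG1296 1 uM, 5.61, 5.35 and 5.86 at AG1296 10 uM, and 5.22, 5.12 and 5.25 in untreated cells. PDGF-AB overlapped the untreated arrays, and both AG1296 doses lay above them. It was called in none of the 6 comparisons. The largest difference, 0.41 ± 0.12 at AG1296 10 uM against untreated, had an adjusted p of 0.138, and without AG1296 10 uM replicate 2 it passed (0.0463).

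Set side by side, the comparisons with untreated cells called 1 of 10 members with PDGF-AB, 4 at AG1296 1 uM and 2 at AG1296 10 uM, and all 7 calls were rises. An intensity trend with robust moderation added falls of Tgfb2 and Tgfb3 (adjusted p = 0.0434) with PDGF-AB and of Ltbp1 at 1 uM (adjusted p = 0.045). It also added rises of Ltbp3 at 1 uM and of Tgfb3 at 10 uM. With dim genes left out, the fall of Tgfb2 with PDGF-AB passed too. That setting also added rises of Tgfbr3 at both doses and of Tgfb3 and Ltbp2 at 10 uM. For AG1296 1 uM 3.2% of all genes were called and 1.88% were called higher, and for 10 uM 1.88% were called and 1.21% higher. The median log2 fold change of the members was 0.10 with PDGF-AB, 0.34 at AG1296 1 uM and 0.33 at AG1296 10 uM, beside 0.01, -0.01 and 0.01 over all genes. The treated and untreated arrays did not overlap for 6 members with PDGF-AB, 10 at AG1296 1 uM and 9 at AG1296 10 uM, against 13.3%, 20.3% and 18% of all genes. AG1296 10 uM against 1 uM called 0 members with limma (0.376% of all genes). It had 2 of 10 members at an unadjusted p under 0.05 (9.07% of all genes), Tgfbr1 and Ltbp2, both lower at 10 uM. Without overlap between the doses were 4 members, against 15.9% of all genes.

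**Figure D2:**
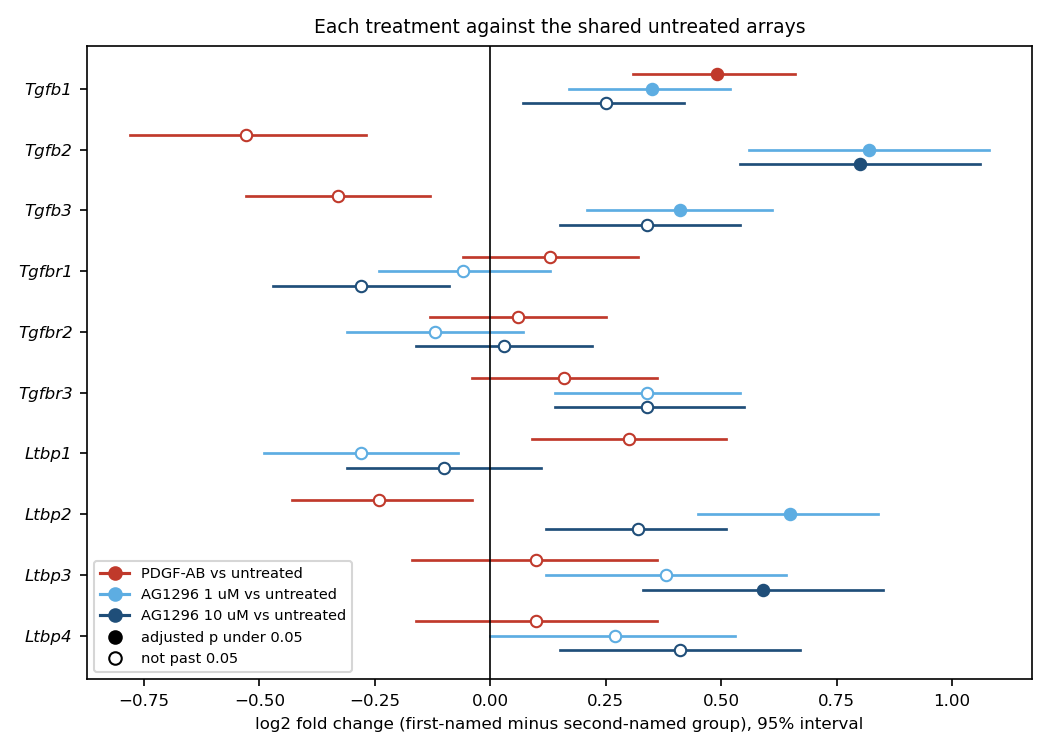
Log2 fold change of each member (PDGF-AB, AG1296 1 uM and AG1296 10 uM, each minus untreated) with 95% intervals from limma, n = 3 arrays per group, filled where the adjusted p was under 0.05. Tgfb2 is negative with PDGF-AB (-0.53, open) and positive at AG1296 1 uM (0.82) and 10 uM (0.80).

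PDGF-AB and AG1296 act on the same receptors in opposite senses, and here they were also compared directly. PDGF-AB against AG1296 1 uM called 4 of 10 members (5.21% of all genes), Tgfb2, Ltbp2 and Tgfb3 lower (2.93% of all genes) and Ltbp1 higher (2.28%). Against 10 uM it called 6 (3.42% of all genes), Tgfb2, Tgfb3, Ltbp2 and Ltbp3 lower (2% of all genes) and Tgfbr1 and Ltbp1 higher (1.42%). Groups did not overlap for 9 members at 1 uM (21.8% of all genes) and 7 at 10 uM (18.1%). The members' median log2 fold change was -0.17 at 1 uM and -0.25 at 10 uM, beside 0.03 and 0.00 over all genes. The calls of Tgfb2, Tgfb3 and Ltbp2 against both doses and of Ltbp1 against 1 uM held in all 20 alternatives.

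**Figure D3:**
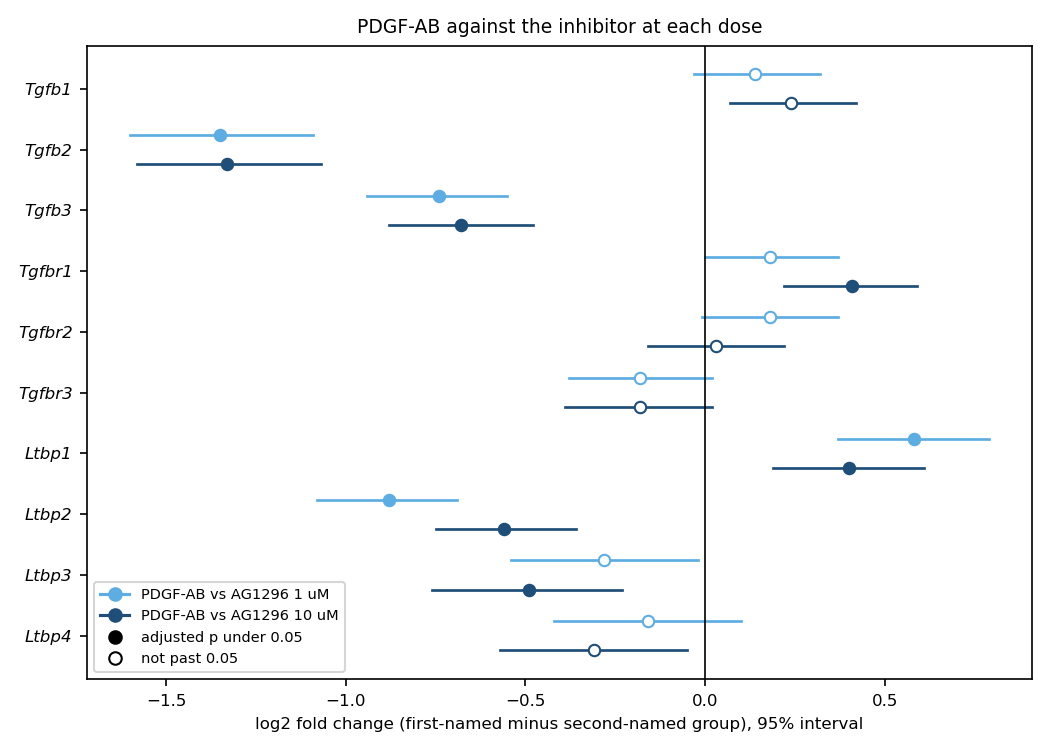
Log2 fold change of each member for PDGF-AB minus AG1296 1 uM and PDGF-AB minus AG1296 10 uM, with 95% intervals from limma (n = 3 arrays per group), filled where the adjusted p was under 0.05. Tgfb2 lies farthest below zero (-1.35 and -1.33) and Ltbp1 above it (0.58 and 0.40).

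Over the 12 arrays, Tgfb2 correlated with Tgfb3 at r = 0.95 and with Ltbp2 at r = 0.90, and with Ltbp1 at -0.86. Ltbp3 correlated with Ltbp4 at 0.90, while Tgfb1 correlated with Tgfb2 at -0.14. These are descriptions: the arrays fall into 4 treatment groups, which every correlation here shares. Of 17087 genes searched, the 3 most like Tgfb2 by Pearson r over the 12 arrays were Ahcyl1 (0.989), Slc44a2 (0.983) and Pid1 (0.982), and those most like Tgfb3 were Zdhhc2 (0.979), Zfp521 (0.977) and Ephx2 (0.975). For Ltbp2 they were Col8a1 (0.973), Igfbp2 (0.971) and Dlc1 (0.968), for Ltbp1 Limk1 (0.964), Cish (0.960) and Tyro3 (0.951), and for Ltbp3 Caskin2 (0.958), Pofut2 (0.954) and Dctn1 (0.948). Tgfb1 had the least close neighbours, Dsp (0.866), Myo10 (0.866) and S1pr5 (0.859), and with 1 array left out its r with Dsp ranged from 0.820 to 0.892. The group means of Dsp (2.92 to 3.38) and of S1pr5 (3.62 to 3.79) all lay below the array medians.

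Genes that act around the ligands were counted in 7 lists, which overlap: the list of targets holds the member Ltbp2 and shares Pmepa1, Skil, Smad7, Fn1 and Itgb5 with other lists, so their calls count in each. Over all genes, 0.331% were called with PDGF-AB, 3.2% at AG1296 1 uM and 1.88% at AG1296 10 uM against untreated. PDGF-AB against AG1296 called 5.21% of all genes at 1 uM and 3.42% at 10 uM. Among 16 genes of latency and activation, 0 passed with PDGF-AB against untreated. At AG1296 1 uM 2 rose and 2 fell, and at 10 uM 2 rose and 1 fell. Itgb8, a subunit of the integrin that releases active TGF-beta from its latent form, averaged 6.33 ± 0.08 with PDGF-AB, 6.75 ± 0.15 at AG1296 1 uM, 6.79 ± 0.17 at AG1296 10 uM and 5.92 ± 0.10 in untreated cells (SD, n = 3 each). It rose at both doses (0.83 ± 0.11, adjusted p = 0.000541, and 0.87 ± 0.11, adjusted p = 0.000636), and PDGF-AB gave 0.41 ± 0.11 (adjusted p = 0.217). Plau, the urokinase that makes plasmin, averaged 5.29 ± 0.37 at AG1296 1 uM and 6.32 ± 0.15 in untreated cells, and fell by 1.03 on the log2 scale (adjusted p = 0.00168). The other calls were Mmp2 (a rise, adjusted p = 0.0386) and Lrrc32 (a fall, 0.036) at 1 uM, and Mmp14 (a rise, 0.0232) and Thbs1 (a fall, 0.0457) at 10 uM. Lrrc32 and Thbs1 lost their calls without any 1 of the 6 arrays of the pair, Mmp2 without AG1296 1 uM replicate 1 or 3 or any untreated array, and Mmp14 without any AG1296 10 uM array or untreated replicate 2 or 3. The highest adjusted p was 0.194, for Thbs1, and Mmp2 and Thbs1 were also lost without some arrays of the other groups. PDGF-AB against AG1296 called 5 of the 16 higher at either dose (Plau, Itgb3, Thbs1, Plat and Lrrc32), 3 lower at 1 uM (Mmp2, Itgb5 and Itgb8) and 1 lower at 10 uM (Itgb8), with Itgb3, Plat and Itgb5 named after their values were seen. The Itgb8 falls, -0.42 and -0.46 on the log2 scale (adjusted p = 0.0379 and 0.0321), were lost in 10 and 7 of 20 alternatives.

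Some genes for microfibril and matrix partners of the LTBPs rose with AG1296. For 3 listed genes, among them the fibrillin gene Fbn1, no probe set named the listed symbol alone, so they are not counted as measured. Fibronectin (Fn1), named after its values were seen, did not pass at 1 uM (0.03, adjusted p = 0.968) or at 10 uM (0.32, adjusted p = 0.241) against untreated. With PDGF-AB, Fn1 was called lower than at AG1296 10 uM (log2 -0.55 ± 0.11, adjusted p = 0.0138) but not than at 1 uM (-0.25 ± 0.11, adjusted p = 0.277). Of 14 measured microfibril and matrix partners (of 17 listed), 0 passed with PDGF-AB against untreated, 4 rose and 0 fell at AG1296 1 uM, and 3 rose and 0 fell at 10 uM. PDGF-AB against AG1296 called 1 of the 14 higher and 5 lower at 1 uM, and 0 higher and 4 lower at 10 uM. Mfap4, a microfibril-associated protein, averaged 6.90 ± 0.10 with PDGF-AB, 8.72 ± 0.04 at AG1296 1 uM, 7.97 ± 0.09 at AG1296 10 uM and 7.16 ± 0.06 in untreated cells (SD, n = 3 each). It rose by 1.56 ± 0.09 at 1 uM (adjusted p = 4.9e-07) and 0.82 ± 0.09 at 10 uM (0.000153). Fbln5, an elastic fibre protein, rose by 1.03 ± 0.08 (adjusted p = 5.99e-06) and 0.70 ± 0.08 (0.000369). Adamtsl2, which binds LTBP1 and fibrillin, rose by 1.14 ± 0.10 (adjusted p = 2.01e-05) and 0.65 ± 0.10 (0.00452). Tgm2, the enzyme that cross-links LTBP1 into the matrix, rose at 1 uM (0.44 ± 0.10, adjusted p = 0.0332), a call lost without any 1 of the 6 arrays, and read 0.25 ± 0.10 at 10 uM (adjusted p = 0.346). The list's median was 0.17 at 1 uM and 0.26 at 10 uM, beside -0.01 and 0.01 over all genes.

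Of 12 proteoglycans and co-receptors that bind TGF-beta, 0 passed with PDGF-AB against untreated, 4 rose and 1 fell at AG1296 1 uM, and 3 rose and 1 fell at 10 uM. Decorin (Dcn), which binds and can neutralise TGF-beta, averaged 7.18 ± 0.12 with PDGF-AB, 9.35 ± 0.17 at AG1296 1 uM, 8.39 ± 0.10 at AG1296 10 uM and 7.64 ± 0.04 in untreated cells (SD, n = 3 each). It rose by 1.70 ± 0.10 at 1 uM (adjusted p = 8.21e-07) and 0.75 ± 0.10 at 10 uM (0.00155), and the 2 doses differed by -0.96 ± 0.10 (adjusted p = 0.000998). Lumican (Lum) averaged 2.57 ± 0.19 with PDGF-AB, 4.40 ± 0.16 at AG1296 1 uM, 2.43 ± 0.24 at AG1296 10 uM and 2.49 ± 0.10 in untreated cells, so only at 1 uM did its mean exceed the array medians. It rose at 1 uM (adjusted p = 2.1e-06), and the size of that rise is left out because the other groups lay below those medians. Fibromodulin (Fmod) averaged 3.75 ± 0.10 with PDGF-AB, 4.43 ± 0.13 at AG1296 1 uM, 4.74 ± 0.11 at AG1296 10 uM and 3.82 ± 0.19 in untreated cells. It rose at both doses (adjusted p = 0.00788 and 0.000557). The sizes are left out here too, because the PDGF-AB and untreated means lay below the array medians. Asporin (Aspn), named after its values were seen, rose at 1 uM (0.70 ± 0.17, adjusted p = 0.0448, lost in 8 of 20 alternatives), and endoglin (Eng), a co-receptor, at 10 uM (0.46 ± 0.09, adjusted p = 0.021). Cd44, the hyaluronan receptor, fell at both, by 0.42 and 0.58 on the log2 scale (adjusted p = 0.0181 and 0.00358). Aspn lost its call with replicate 1 of any group removed, with AG1296 1 uM replicate 2 or the third untreated array removed, with median centring and with all probe sets tested, at an adjusted p of up to 0.185. The 1 uM fall of Cd44 was lost without any 1 of the 6 arrays, and the 10 uM rise of Eng when replicate 2 or 3 of either group was removed.

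Few signal carriers passed the test. Of 20 SMADs and SMAD regulators, 0 passed with PDGF-AB against untreated, 2 rose at AG1296 1 uM (Pmepa1, 0.43 ± 0.09, adjusted p = 0.019, and Ski, 0.39 ± 0.09, adjusted p = 0.027) and 1 fell at 10 uM (Smurf2, -0.60 ± 0.10, adjusted p = 0.00611). Smad7, the inhibitory SMAD that TGF-beta itself induces, averaged 8.14 ± 0.01 with PDGF-AB, 8.19 ± 0.11 at AG1296 1 uM, 8.18 ± 0.11 at AG1296 10 uM and 8.19 ± 0.09 in untreated cells (SD, n = 3 each). Its 3 differences from untreated lay between -0.05 and 0.00, with an SE of 0.09. Skil, a SMAD repressor and feedback target, read -0.30, 0.09 and -0.15 against untreated with PDGF-AB, AG1296 1 uM and AG1296 10 uM (adjusted p = 0.346, 0.798 and 0.626). Of 10 other receptors of the superfamily, 0 passed in any of the 3 comparisons with untreated, and 1 fell with PDGF-AB against AG1296 1 uM (Bmpr2, named after its values were seen). Pmepa1 lost its call when AG1296 1 uM replicate 1 or 3 or untreated replicate 2 or 3 was removed, and Ski when any AG1296 1 uM array or untreated replicate 2 or 3 was. Averaging the probe sets of Smurf2 ended its call (adjusted p = 0.0716).

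Against untreated, known TGF-beta targets were called in both directions at AG1296 1 uM and only higher at 10 uM. Over all genes 1.88% were called higher at 1 uM and 1.21% at 10 uM. Of 30 measured (of 32 listed), 1 rose with PDGF-AB against untreated (Adam12, 0.48 ± 0.09, adjusted p = 0.0398), 8 rose and 2 fell at AG1296 1 uM, and 6 rose and 0 fell at 10 uM. Over the alternatives the rises ranged from 4 to 8 at 1 uM, with 4 when AG1296 1 uM replicate 1 or 3 was left out, and from 3 to 7 at 10 uM, with 3 when AG1296 10 uM replicate 1 or 3 or untreated replicate 1 or 2 was left out. The list's median was -0.02 with PDGF-AB, 0.03 at 1 uM and 0.04 at 10 uM, beside 0.01, -0.01 and 0.01 over all genes. Timp3, a tissue inhibitor of metalloproteases, rose by 1.01 ± 0.08 at 1 uM (adjusted p = 8.54e-06) and 0.79 ± 0.08 at 10 uM (0.000177). Lox, which cross-links collagen and elastin, averaged 10.85 ± 0.16 with PDGF-AB, 11.92 ± 0.04 at AG1296 1 uM, 11.60 ± 0.06 at AG1296 10 uM and 11.16 ± 0.03 in untreated cells (SD, n = 3 each), and rose at both doses (0.76 and 0.44, adjusted p = 0.00026 and 0.023). The 10 uM call of Lox was lost without any 1 of the 6 arrays (adjusted p up to 0.0955). Bhlhe40 rose at 1 uM by 0.65 ± 0.10 (adjusted p = 0.00134), and at 10 uM the matrix genes Postn, Col3a1 and Col1a1 rose by 0.68, 0.54 and 0.53 (adjusted p = 0.00381, 0.00655 and 0.0161). Col1a1 at 10 uM lost its call when AG1296 10 uM replicate 1 or 3 or untreated replicate 1 or 2 was removed (up to 0.0856). The 2 falls at 1 uM were Cnn1 and Tnc, named after their values were seen.

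The classic readouts Acta2 and Ccn2 did not pass against untreated. Acta2, the smooth muscle actin of myofibroblasts, read -0.16, -0.02 and -0.08 against untreated with PDGF-AB, AG1296 1 uM and AG1296 10 uM, with an SE of 0.08 (adjusted p = 0.606, 0.973 and 0.805). Ccn2, the matricellular protein CTGF, read -0.17, 0.14 and 0.03 (adjusted p = 0.593, 0.517 and 0.946). These p-values do not show that the groups were alike. Pmepa1 read 0.01 with PDGF-AB (adjusted p = 0.988) and 0.22 at AG1296 10 uM (0.375), beside its call at 1 uM. PDGF-AB against AG1296 called 4 targets higher and 9 lower at 1 uM and 3 higher and 5 lower at 10 uM. At 1 uM the lower ones included Ccn2 (log2 -0.31, adjusted p = 0.0398), Skil (-0.39, 0.0279) and Pmepa1 (-0.42, 0.0143), and these calls were lost in 13, 5 and 3 of 20 alternatives. At 10 uM none of the 3 passed (adjusted p = 0.258, 0.552 and 0.328). The rise of Adam12 with PDGF-AB was lost in 14 of 20 alternatives, among them the removal of any 1 array except AG1296 10 uM replicate 3 (adjusted p up to 0.207).

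**Figure D4:**
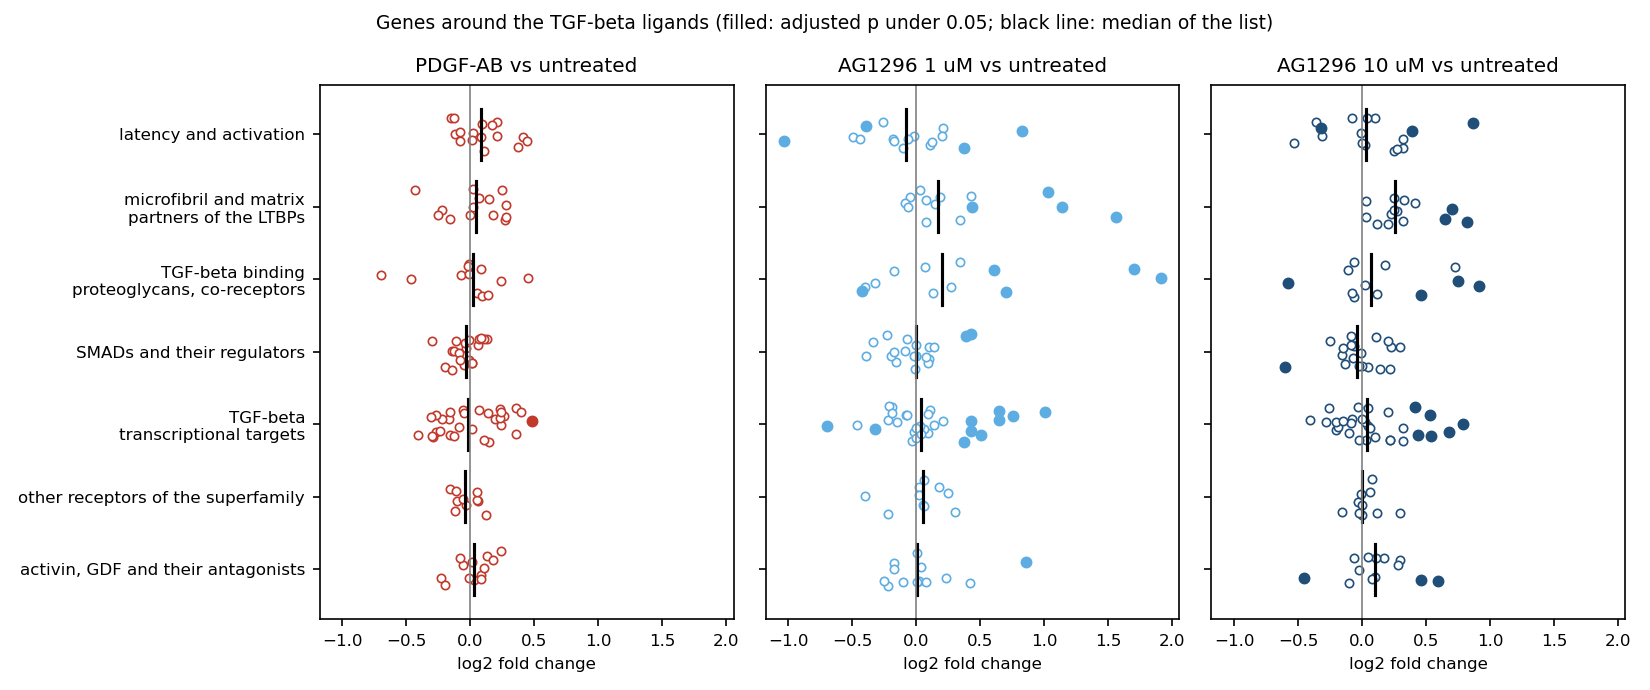
Log2 fold change of every measured gene of the 7 lists against untreated, for PDGF-AB, AG1296 1 uM and AG1296 10 uM, filled where the adjusted p was under 0.05, with the median of the list as a black line. PDGF-AB has 1 filled point (Adam12), while the AG1296 panels have filled points on both sides of zero.

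Activins and GDFs, relatives of TGF-beta, and their antagonists showed 0 calls of 13 measured with PDGF-AB against untreated, 1 rise at AG1296 1 uM, and 2 rises and 1 fall at 10 uM. Follistatin (Fst), which neutralises activin, averaged 6.48 ± 0.04 with PDGF-AB, 7.57 ± 0.12 at AG1296 1 uM, 7.30 ± 0.07 at AG1296 10 uM and 6.70 ± 0.11 in untreated cells (SD, n = 3 each). It rose by 0.86 ± 0.09 (adjusted p = 9.29e-05) and 0.59 ± 0.09 (0.0038) at the 2 doses, and with PDGF-AB it was lower than at 1 uM by 1.09 on the log2 scale (log2 -1.09, adjusted p = 5.12e-06). Inhba, the activin A subunit, fell at 10 uM by 0.45 on the log2 scale (adjusted p = 0.0133), and Fstl3, another follistatin-type antagonist, rose (0.46 ± 0.11, adjusted p = 0.0443). Fstl3 was lost in 13 of 20 alternatives, among them without AG1296 10 uM replicate 1 or 2 or any 1 untreated array. Removing replicate 1 of either group ended the call of Inhba.

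Markers of other cells moved with some of these comparisons. The mean over 6 epicardial and mesothelial markers ranged from 5.08 to 5.26 with PDGF-AB, 4.93 to 5.04 at AG1296 1 uM, 4.90 to 5.04 at AG1296 10 uM and 5.28 to 5.34 in untreated cells. Of the 6, 1 rose and 3 fell at AG1296 1 uM and 0 rose and 2 fell at 10 uM, with 0 calls for PDGF-AB against untreated. PDGF-AB against AG1296 called 3 of the 6 higher and 1 lower at 1 uM, and 2 higher and 1 lower at 10 uM. The mean over 8 pericyte and smooth muscle markers ranged from 4.36 to 4.40 with PDGF-AB, 4.01 to 4.13 at AG1296 1 uM, 4.32 to 4.37 at AG1296 10 uM and 4.15 to 4.25 in untreated cells. Against untreated, 1 of these 8 fell at AG1296 1 uM (Mcam), and 1 rose and 1 fell at 10 uM (Myh11 and Mcam). With PDGF-AB 3 of these 8 were called higher than at AG1296 1 uM and 1 lower than at 10 uM. Lyz2 was lower and Tnnt2 higher with PDGF-AB against both doses. Tek, 1 of 9 endothelial markers, rose at AG1296 1 uM against untreated and was lower with PDGF-AB than at that dose. The leukocyte mean ranged from 3.36 to 3.56 with PDGF-AB and 3.40 to 3.49 in untreated cells, below the array medians. Of 11 fibroblast markers, 4 rose at AG1296 1 uM (Dcn, Lum, Col1a1 and Col3a1, all in the lists above) and 1 fell (Pdgfra). At 10 uM 3 rose (Dcn, Col1a1 and Col3a1) and 1 fell (Pdgfra), and 0 were called with PDGF-AB against untreated. PDGF-AB against AG1296 called 3 of the 11 higher and 2 lower at 1 uM (Pdgfra, Dcn, Lum, Ddr2 and Thy1). At 10 uM it called 1 higher and 1 lower (Pdgfra and Dcn). The part of these shifts in the members' results was not tested.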

How the data were processed

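Cardiac fibroblast cultures were measured on 12 one-colour arrays, 3 for each of 4 groups, and the authors deposited a log2 value for every probe set. Per the submitters' processing notes the authors used RMA and limma, with no versions given. Per the labels' protocols, RNA with an integrity number above 8.0 was used and 100 ng was labelled. No source names the log base, which the values' range sets at 2, and no further normalization was applied. Each gene was represented by a probe set with 1 symbol (of 28853 probe sets, 21789), the one with the highest mean where there were several, which left 19938 genes. RefSeq names and promoter windows are of GRCm38.p6. Arrays have no read depth, so their number limits the precision.

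All 12 arrays entered 1 fit in limma 3.58.1 (R 4.3.3), with moderated tests of 6 pairwise comparisons and an F test over 4 groups. Calls are at a p under 0.05 after Benjamini-Hochberg adjustment over all genes. The median residual SD was 0.147 with 8 residual degrees of freedom and 5.35 prior degrees of freedom. The test was also run on 5 simulated sets with changes put into AG1296 1 uM against untreated. It recovered 45.2% of changes of 0.5 log2 and 90.8% of changes of 1 log2, and 6.34% of its calls were false. The members, gene lists, naming rule and tests were chosen with earlier results of these data known. Named beyond the members were up to 4 called genes per list and comparison with untreated, Ccn2, Acta2, Pmepa1, Smad7 and Skil, and the 3 genes most like each member called in the F test. Alternatives were quantile normalization, median centring, a filter on dim genes, all probe sets, mean of probe sets, an intensity trend with robust moderation, a replicate block, only the 6 arrays compared, and leaving out each array.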

Additional observations from a re-analysis of the deposited data

How the results depend on the processing

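The 10 members, 6 comparisons and 20 alternatives gave 1200 outcomes. Of these, 1130 kept their side of the threshold, 57 lost a call, 13 gained one and 0 reversed. A reversal was counted only where limma as run or the alternative made a call. Differences that passed in neither could change sign, such as Tgfbr2 with PDGF-AB against untreated (-0.02 to 0.13). The counts of members called moved as follows. PDGF-AB against untreated had 1 call, and 2 with dim genes left out (adding Tgfb2, a fall). It had 3 with an intensity trend and robust moderation (adding Tgfb2 and Tgfb3, both falls). With only the 6 arrays compared it had 0, and it ranged from 0 to 1 with 1 array left out. AG1296 1 uM against untreated had 4, 5 with dim genes left out (adding Tgfbr3), 6 with an intensity trend and robust moderation (adding Ltbp1, a fall, and Ltbp3), 2 with only the 6 arrays and 3 with arrays centred on their medians, with a range of 2 to 4 when 1 array was left out. AG1296 10 uM against untreated had 2, and 5 with dim genes left out, ranging from 1 to 3 with 1 array left out. PDGF-AB against AG1296 10 uM had 6, and 3 with only the 6 arrays, ranging from 3 to 5 with 1 array left out. PDGF-AB against AG1296 1 uM had 4 in every alternative, AG1296 10 uM against 1 uM had 0 in every alternative, and the F test had 4 to 8 (the restriction to 6 arrays does not apply to it). The fewer samples of the 6-array fits bear on their counts; the cause of the other changes was not tested. Calls over all genes ranged from 7 to 160 for PDGF-AB against untreated, 349 to 1010 for AG1296 1 uM and 218 to 686 for AG1296 10 uM against untreated.

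With the replicate block, counts of members called were 1 for PDGF-AB, 4 for AG1296 1 uM and 3 for AG1296 10 uM against untreated, the last gaining Tgfb3. Among the other genes named against untreated, the block ended the calls of Mmp2 at 1 uM and of Thbs1 and Fstl3 at 10 uM. Median centring ended those of Tgfb3, Aspn, Mmp2, Tgm2, Col3a1 and Postn at 1 uM, of Bhlhe40, Fstl3, Lox, Mmp14 and Thbs1 at 10 uM and of Adam12 with PDGF-AB. Limma as run did not take the replicate numbers as pairing the samples. For same-numbered arrays of different groups, deviations from the group means correlated at a median of 0.11 (range -0.0307 to 0.298). Of 18 such pairs, 9 were over 0.1. For arrays with different numbers the median was -0.0337 (range -0.243 to 0.181). Of 12 arrays, 8 correlated best with their own number. Whether the numbers mark a shared batch was not tested. With 3 arrays per group, differences such as Tgfb2 with PDGF-AB against untreated, which passed in 2 of 20 alternatives, lie near what the test can call.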
